A study of Mus musculus with 10 samples.

Results

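Forkhead (Fox) genes encode transcription factors that share a DNA-binding domain of the winged-helix type. The genes described here were chosen by their name on the array, Fox followed by a letter from a to s and a number, without Foxm1 and Foxp3, and they comprise 36 of the 27670 genes on the array, read by 52 probes. The family was singled out with the difference of Foxd4 already known, so the values of Foxd4 are given as a description with no test. A further 3 forkhead genes carry older names on the array (Foxn3 as Ches1, Foxo4 as Mllt7 and Foxs1 as Fkhl18) and are given only once, at the end.

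RNA came from whole lung of 5 p53-null and 5 wild-type male mice, 8 weeks old, all labelled C57BL/6J, that had breathed a saline aerosol for 30 min; the design text calls the 5 of each genotype biological replicates. Mice lacking p53, the damage-responsive transcription factor encoded by Trp53, were set against wild-type mice at baseline, with no infection. Neither the p53 allele nor the origin of the controls is named in the labels. Each RNA sample was hybridised to its own 1-colour Agilent array. Only 1 slide carried arrays of both genotypes, 1 of each. Every other slide carried arrays of a single genotype, so differences between genotypes and between slides largely cannot be told apart. Wild-type array 3 was scanned on another day than the rest.

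Forkhead proteins bind short A- and T-rich sites, and several act early in opening chromatin. In lung, FoxA proteins direct genes of the airway and alveolar epithelium, Foxj1 switches on the genes of motile cilia, FoxF and FoxC proteins act in mesenchyme and vessels, and FoxP proteins repress transcription in the epithelium. FoxO proteins are kept out of the nucleus by phosphorylation through the PI3-kinase and Akt pathway and induce genes of cell-cycle arrest and metabolism.

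The promoters of Foxd4, the gene with the largest difference in the family, and of Foxa1, the forkhead gene that passed the test, are shown because the results below turn on these genes. They run from 250 bases before to 50 after the transcript start, from RefSeq on GRCm38.p6, at chr19:24900967-24901266 for Foxd4 and chr12:57546062-57546361 for Foxa1, both on the minus strand. Capitals mark a match to the forkhead motif, which was searched on both strands as A or G, then C or T, then AAA, then C or T, then A.
Foxd4: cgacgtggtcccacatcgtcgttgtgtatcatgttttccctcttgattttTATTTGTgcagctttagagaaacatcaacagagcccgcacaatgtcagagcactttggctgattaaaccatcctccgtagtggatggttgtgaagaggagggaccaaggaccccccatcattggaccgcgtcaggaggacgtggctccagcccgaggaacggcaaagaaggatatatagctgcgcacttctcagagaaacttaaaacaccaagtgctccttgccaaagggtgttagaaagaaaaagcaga
Foxa1: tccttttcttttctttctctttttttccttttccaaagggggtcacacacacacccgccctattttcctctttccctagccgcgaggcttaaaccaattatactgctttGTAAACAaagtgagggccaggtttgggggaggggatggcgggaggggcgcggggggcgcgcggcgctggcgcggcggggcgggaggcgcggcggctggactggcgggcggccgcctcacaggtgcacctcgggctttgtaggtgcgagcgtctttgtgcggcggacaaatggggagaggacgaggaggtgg

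The match in Foxd4 begins at position -200 from the transcript start and lies on the opposite strand, and that in Foxa1 begins at position -141 and is the word GTAAACA. RefSeq promoters were at hand for 23 of the 36 genes, in 27 windows. The forkhead motif was found in 7 of these windows (25.9%), against 27.5% of all 32851 promoter windows, and GTAAACA in 1 (3.7%), against 3.6% of all. A p53 half-site of 10 bases was found in 2 windows, those of Foxf2 and Foxn1 (7.4%), against 8.4% of all, and in neither sequence shown above. GTAAACA is one form of the wider motif, so these counts overlap. These are matches of letters, not bound sites.

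All levels below are log2 signals relative to the array's own 75th percentile, so they compare arrays and not genes. Between 71.4% and 84.0% of an array's spots were well above background, Agilent's flag for a spot clearly brighter than its surroundings, and 5 arrays a group set the precision. The Trp53 probe with 10 spots was lower in p53-null lung by -1.28 ± 0.16 (SE), with -3.15 to -2.66 on p53-null arrays, against -1.67 to -1.43 on wild-type arrays 1 to 4 and -2.22 on wild-type array 5, which stood between the groups (limma adjusted p = 0.00589 over all probes). A second, brighter Trp53 probe differed by 0.31 ± 0.28 (limma adjusted p = 0.504 over all probes). It read 0.13 to 0.65 on p53-null arrays, against -0.34 to 0.01 on wild-type arrays 1 to 4 and 1.24 on wild-type array 5. A gene is called when its limma adjusted p over all tested genes is under 0.05. The brighter probe stands for the gene, so Trp53 itself was not called (limma adjusted p = 0.505). Neutrophil and lymphocyte markers were higher in p53-null lung, with 7 of 10 neutrophil, 8 of 9 B-cell and 6 of 11 T- and NK-cell genes called, and 4 of 8 fibroblast genes were lower. Over all tested genes, 4.59% were called higher and 2.89% lower. Of 7 macrophage genes 1 was called higher and 1 lower, and their mean level, -0.12 to 0.17 on p53-null arrays, against -0.26 to 0.22 on wild-type arrays, overlapped between the groups. The mean neutrophil level, as a deviation from the 10-array mean, ran from 0.09 to 1.58 on p53-null arrays, against -1.05 to -0.44 on wild-type arrays, and the fibroblast level from -0.37 to -0.15, against 0.10 to 0.33. None of 8 alveolar type 2 markers was called by limma, and none passed at an unadjusted p under 0.05. In whole lung, fewer cells of a type and less RNA per cell cannot be told apart.

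Of the 36 forkhead genes, 24 were well above background on all 10 arrays, 7 on 5 to 9 arrays, 4 on 1 to 4 arrays and 1 on none. Genes read well above background on at least 5 of the 10 arrays were tested, which kept 31 forkhead genes. The 24 seen on every array were Foxa1, Foxa2, Foxc1, Foxc2, Foxd1, Foxe3, Foxf1, Foxf2, Foxh1, Foxi2, Foxj1, Foxj2, Foxj3, Foxk1, Foxk2, Foxl2, Foxn2, Foxo1, Foxo3, Foxo6, Foxp1, Foxp2, Foxp4 and Foxq1. Among the partly seen genes were Foxb2 and Foxd2 on 9 arrays, Foxd3 on 8, and Foxn1, Foxa3 and Foxd4 on 6. The untested genes were Foxb1 on 3 arrays, Foxe1 on 2, Foxl1 and Foxn4 on 1, and Foxi1, a factor of ionocytes and other proton-handling cells, on none. Foxb1, Foxl1 and Foxn4 were detected only on arrays of the higher slide numbers (p53-null array 2 and wild-type arrays 3 and 4), as was Foxd4 among wild-type arrays. On these arrays 81.3% to 84.0% of spots were well above background, against 71.4% to 78.3% on the others.

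Foxd4, a D-class factor studied mainly in early neural precursors of the mouse embryo, was read by a single probe on chromosome 19 from 24599016 to 24599075 (mm7). Its log2 signal was -4.90, -5.83, -6.24, -5.42 and -6.39 on the 5 p53-null arrays, against -8.35, -8.69, -8.43, -7.91 and -8.54 on the 5 wild-type arrays. Every p53-null array lay above every wild-type array. In scanner units the probe read 93.6, 59.1, 47.5, 80.4 and 37.7 on p53-null arrays, against 12.8, 9.6, 10.8, 18.3 and 6.4 on wild-type arrays. The means were -5.76 ± 0.61 in p53-null and -8.39 ± 0.29 in wild-type lung (SD, n = 5 each), a difference of 2.63 ± 0.28 (SE).

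The probe was well above background on all 5 p53-null arrays and on 1 wild-type array, number 4, so the gene entered the table through its p53-null arrays. The dimmest probe well above background read between -8.41 and -6.40 across the 10 arrays. On wild-type arrays 1, 2 and 5 that limit was -6.85, -6.47 and -6.50, above the Foxd4 readings of -8.35, -8.69 and -8.54. The size of the difference therefore rests on wild-type readings mostly below the detection limit and is not a measured fold change. With background removed by normexp and an offset of 50 the difference of Foxd4 was 0.84. On the slide that carried both genotypes, with 1 array of each, it was 2.08, and among the 7 arrays of the lower slide numbers it was 2.79.

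Of 18 tested genes whose probe lay within 1 Mb of that of Foxd4, 12 had a positive and 6 a negative difference. By limma 0 were called higher, against 4.59% of all tested genes, and 2 were called lower in p53-null lung, against 2.89%. Cbwd1, the nearest, 21.6 kb away, differed by -0.04 ± 0.068 (limma adjusted p = 0.738). Tmem252, at -221 kb on the other side, read 1.84, 0.60, 0.23, 0.74 and 0.52 on p53-null arrays, against 1.64, 2.13, 2.73, 1.55 and 2.09 on wild-type arrays. The first p53-null array lay within the wild-type range, and the difference was -1.24 ± 0.32 (limma adjusted p = 0.0463). Kank1, an actin-regulating gene 535 kb away, read 1.42 to 1.69 on p53-null arrays, against 1.83 to 2.39 on wild-type arrays, and differed by -0.47 ± 0.11 with no overlap (limma adjusted p = 0.0397). When each array was left out in turn, Tmem252 kept its call 2 times in 10 and Kank1 1 time.

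**Figure D1:**
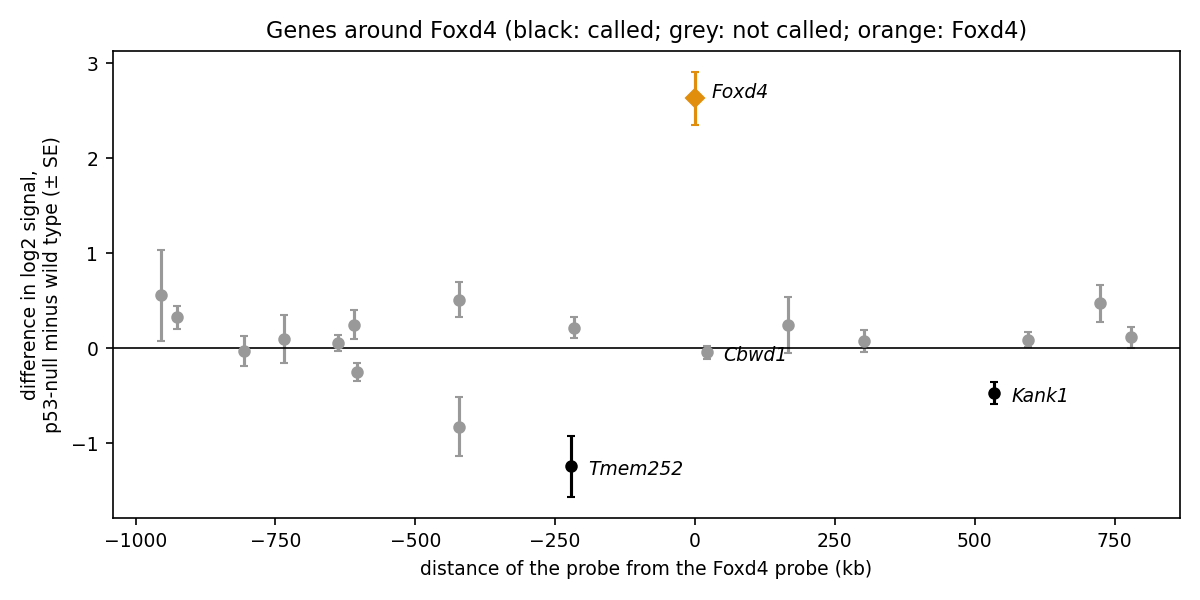
Difference in log2 signal between p53-null and wild-type lung (vertical axis, bars are SE) for Foxd4 and the 18 tested genes within 1 Mb, by the distance of their probe from that of Foxd4 (horizontal axis, kb). Foxd4 stands at 2.63, Cbwd1 next to it at -0.04, and the called genes Tmem252 and Kank1 lie below 0.

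Among the other 30 tested forkhead genes, 1 was called, Foxa1, and it was lower in p53-null lung. That is 3.33% of the family, against 7.49% of all 21116 tested genes; higher calls came to 0 of 30, against 4.59% of all genes, and lower calls to 1, against 2.89%. At an unadjusted p under 0.05 in limma, 5 of 30 passed (16.7%), against 27.6% of all genes. These were Foxa1, Foxp4, Foxo6 and Foxq1, lower in p53-null lung, and Foxd1, higher. In none of the 30 were the 2 groups of arrays fully separate, against 9.32% of all genes. Differences were positive for 15 genes and negative for 15, with a median of -0.02 over the 30 genes, against 0.05 over all tested genes, and a median size of 0.16, against 0.22.

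**Figure D2:**
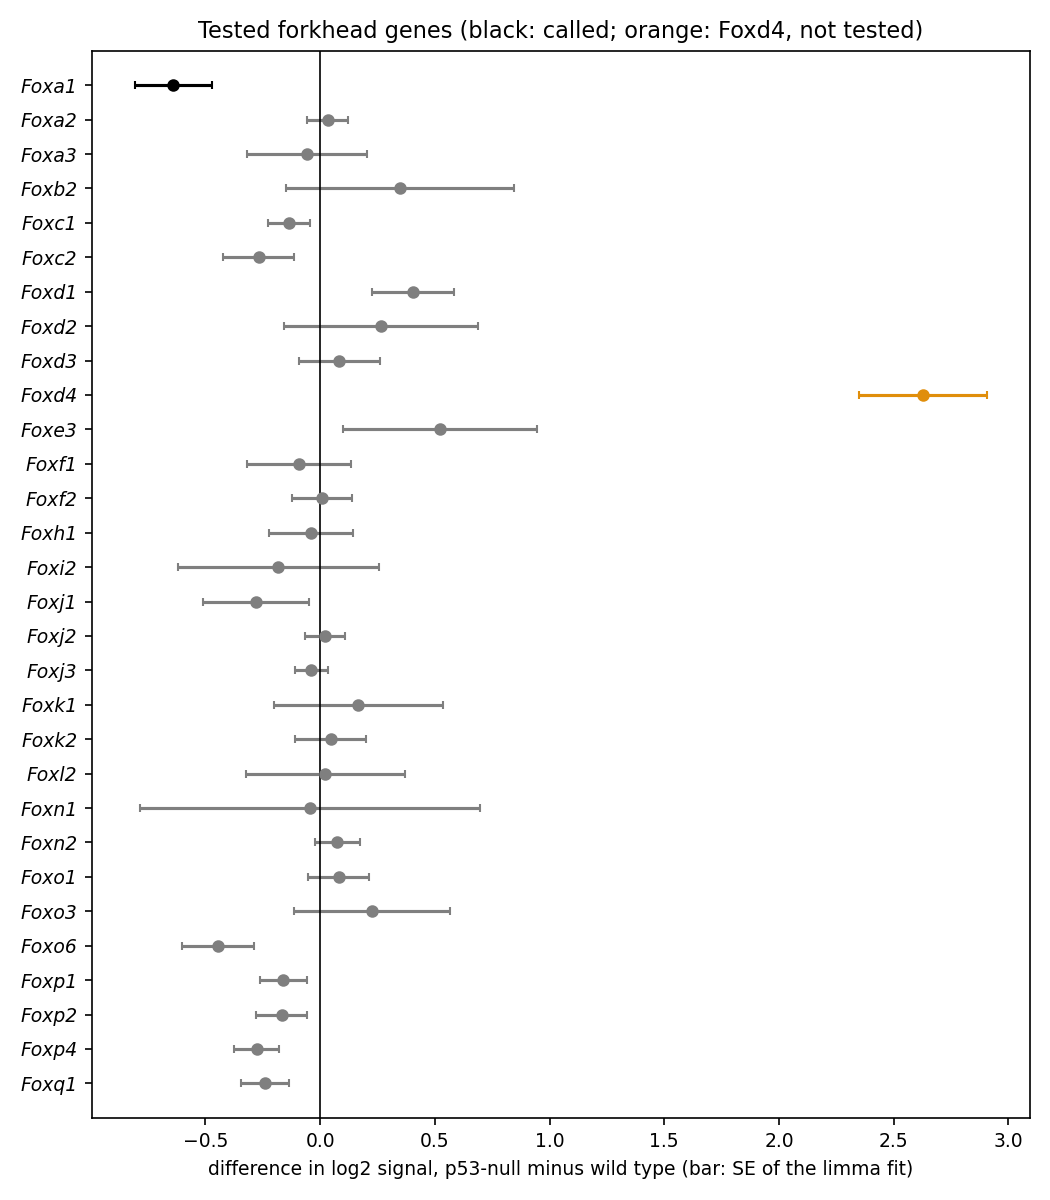
Difference in log2 signal, p53-null minus wild type, with its SE, for 30 of the tested forkhead genes in alphabetical order. Foxd4 (orange, described without a test) lies at 2.63, Foxa1 (black, called) at -0.64, and the other genes (grey, not called) lie between -0.44 and 0.52.

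The FoxA genes differed in their spread between arrays. Foxa1, a factor that opens chromatin at genes of airway and alveolar epithelium, was read by 1 probe on chromosome 12 from 55476083 to 55476142 (mm7). It read -0.57, -0.47, -0.41, -0.37 and -0.34 on p53-null arrays, against 0.48, 0.14, 0.65, 0.11 and -0.35 on wild-type arrays. Wild-type arrays 1 to 4 lay above all p53-null arrays, while wild-type array 5 lay among them. The means were -0.43 ± 0.09 in p53-null and 0.21 ± 0.38 in wild-type lung (SD, n = 5 each), a difference of -0.64 ± 0.17 (limma adjusted p = 0.0497). The call is at the threshold. When each array was left out in turn, it held 1 time in 10, without wild-type array 5 (-0.78, limma adjusted p = 0.00243), and in the other 9 refits the difference was -0.66 to -0.53 with adjusted p above the threshold. On the slide with both genotypes the difference was -0.59, and within the lower slide numbers -0.51 (limma adjusted p = 0.373).

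Foxa2, the partner of Foxa1 in lung epithelium, was printed in 10 spots and read 3.66, 3.94, 3.90, 3.92 and 4.10 on p53-null arrays, against 3.79, 3.81, 3.93, 3.86 and 3.96 on wild-type arrays. The groups overlapped throughout, with a difference of 0.03 ± 0.089 (limma adjusted p = 0.851). The 10 spots of one array differed among themselves by an SD of 0.0243 to 0.0889, while the spot means differed between arrays by an SD of 0.157 in p53-null and 0.0711 in wild-type lung. Foxa3, best known from liver and gut, read -7.07, -5.99, -6.92, -6.55 and -6.57 on p53-null arrays, against -7.22, -6.67, -6.70, -6.30 and -5.93 on wild-type arrays. It was well above background on 3 arrays of each genotype, just inside the detection limit, and differed by -0.06 ± 0.26 (limma adjusted p = 0.915).

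Of 15 FoxA target genes of lung epithelium, 0 were called higher and 1 lower, against 4.59% and 2.89% of all tested genes. The list's median was -0.03. The called gene was Nkx2-1, the homeobox factor that specifies lung epithelium, which read 1.76, 1.93, 1.75, 2.06 and 2.11 on p53-null arrays, against 2.58, 2.43, 2.86, 2.82 and 2.16 on wild-type arrays. No p53-null array reached a wild-type array, and the difference was -0.65 ± 0.14 (limma adjusted p = 0.0327), a call kept 1 time in 10 when single arrays were left out. Surfactant and secretoglobin genes of the same list were not called. The mean alveolar type 2 level was -0.10 to 0.11 on p53-null arrays, against -0.20 to 0.31 on wild-type arrays.

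Foxj1, the switch for motile cilia, read 2.55, 2.68, 2.26, 2.58 and 2.36 on p53-null arrays, against 3.05, 3.09, 3.13, 2.69 and 1.87 on wild-type arrays. Wild-type array 5 was the lowest of all 10, and the other 4 wild-type arrays lay above every p53-null array. The difference was -0.28 ± 0.23 (limma adjusted p = 0.468), and -0.50 without wild-type array 5 (limma adjusted p = 0.0146). Of 21 tested motile cilia genes downstream of Foxj1, 1 was called higher and 0 lower, against 4.59% and 2.89% of all tested genes. The list's median was 0.12. The called gene was Tekt1, a filament protein of the axoneme, at 2.94, 2.79, 2.88, 2.97 and 2.92 on p53-null arrays, against 2.70, 2.47, 2.73, 2.26 and 2.45 on wild-type arrays. Its difference of 0.38 ± 0.10 was at the threshold (limma adjusted p = 0.0499), and the call held 1 time in 10 when single arrays were left out. The difference of Foxj1 had the opposite sign but was not called. Without wild-type array 5, 3 cilia genes were called higher and 3 lower, in a fit that called 31.3% of all genes.

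Across the 10 arrays, the level of Foxj1 and the mean level of the cilia genes showed no relation that passed a test (Pearson r = 0.30, permutation p = 0.398; Spearman rho = 0.04, permutation p = 0.927), and r was -0.10 without the 2 arrays farthest from the median of Foxj1 and 0.40 among the 7 arrays of the lower slide numbers. Foxa2 and the FoxA target genes gave r = 0.51 (permutation p = 0.125) and rho = 0.58 (permutation p = 0.087), with r = 0.59 without 2 arrays and 0.57 in the lower slide numbers. Foxa1 and the same target genes gave r = -0.03 (permutation p = 0.991). Foxo1 and the FoxO target genes gave r = 0.52 (permutation p = 0.127), which was -0.21 without the 2 arrays farthest from the median of Foxo1. Foxf1 and Foxo3 gave r = 0.22 and 0.12 with their lists. Among 6 such relations none passed after adjustment, the lowest Benjamini-Hochberg adjusted permutation p being 0.380. The higher slide numbers held 3 arrays, too few for a value.

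Foxj2 and Foxj3, paralogues of Foxj1, differed by 0.02 ± 0.088 and -0.04 ± 0.073 (limma adjusted p = 0.912 and 0.780). Foxj3 read 2.15, 2.35, 2.13, 2.21 and 2.19 on p53-null arrays, against 2.13, 2.19, 2.28, 2.32 and 2.28 on wild-type arrays, so both groups spanned the same narrow range. A second, dimmer Foxj3 probe differed by -0.48 ± 0.19 (limma adjusted p = 0.142 over all probes), and the other was below that limit on all 10 arrays.

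FoxF, FoxC and FoxQ genes lie in clusters in the genome. Foxf1, needed for lung vessels and mesenchyme, Foxc2, needed for lymphatic and arterial vessels, and Foxl1 were placed by the files on chromosome 8 between 119719930 and 119761901, and Foxq1, Foxf2 and Foxc1 on chromosome 13 between 30925543 and 31174994 (mm7). None of the tested ones was called: the chromosome 8 genes Foxf1 and Foxc2 differed by -0.09 ± 0.22 and -0.27 ± 0.16, and the chromosome 13 genes Foxq1, Foxf2 and Foxc1 by -0.24 ± 0.10, 0.01 ± 0.13 and -0.14 ± 0.090. Foxl1, a factor of gut mesenchyme, exceeded the background limit on 1 p53-null array and was not tested.

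Foxf2, a mesenchymal factor, read 2.32, 2.74, 2.77, 2.66 and 2.81 on p53-null arrays, against 2.46, 2.69, 2.41, 2.87 and 2.83 on wild-type arrays. Foxc2 read -2.93, -2.85, -2.49, -2.61 and -2.71 on p53-null arrays, against -2.84, -2.19, -2.07, -2.59 and -2.56 on wild-type arrays. In both genes the groups overlapped (limma adjusted p = 0.978 for Foxf2 and 0.295 for Foxc2). Foxq1, an epithelial factor, read -0.19, 0.13, -0.10, -0.08 and -0.14 on p53-null arrays, against 0.23, 0.08, 0.44, -0.03 and 0.09 on wild-type arrays. All p53-null arrays but number 2 were below the lowest wild-type array, and the gene did not pass the test (limma adjusted p = 0.171). Foxf1 read -1.71 to -0.98 on p53-null arrays, against -1.60 to -0.58 on wild-type arrays, and Foxc1 read -1.49 to -1.16, against -1.36 to -1.14.

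Of 26 genes tied to FoxF and FoxC in lung mesenchyme and endothelium, none was called by limma in either direction, against 7.49% of all tested genes. The list's median was -0.16. At an unadjusted p under 0.05 in limma, 3 higher and 7 lower passed, where 27.6% of all tested genes passed in either direction. The smallest p values belonged to Notch1, the receptor, at -0.44 ± 0.12 (limma adjusted p = 0.0525), and Hoxa5, a homeobox gene of lung mesenchyme, at -0.50 ± 0.15 (limma adjusted p = 0.0709). Hoxa5 read -0.06 to 0.65 on p53-null arrays, against 0.73 to 1.11 on wild-type arrays, with no overlap. Without wild-type array 5, 3 of the 26 were called higher and 7 lower, in a fit that called 31.3% of all genes. In the same tissue 4 of 8 fibroblast and 1 of 9 endothelial markers were called lower, against 2.89% of all tested genes. The part of cell makeup in the list's values was not tested.

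Foxo1 and Foxo3, the FoxO proteins most studied in lymphocytes and muscle, were both detected on every array. Foxo1 read 1.99, 1.85, 2.09, 2.28 and 2.18 on p53-null arrays, against 2.35, 1.96, 2.03, 1.99 and 1.66 on wild-type arrays, a difference of 0.08 ± 0.13 (limma adjusted p = 0.734). A second Foxo1 probe differed by 0.01 ± 0.080, so both probes placed Foxo1 near 0. Foxo3 differed by 0.22 ± 0.34 and, at its other probe, by 0.38 ± 0.35. Foxo6, a FoxO member that is less dependent on nuclear export, read 0.75, 0.84, 1.13, 1.22 and 1.41 on p53-null arrays, against 1.31, 1.85, 1.64, 1.26 and 1.51 on wild-type arrays. All p53-null arrays but number 5 lay below every wild-type array, for a difference of -0.44 ± 0.16 that did not pass (limma adjusted p = 0.104).

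Of 27 tested FoxO target genes, 2 were called higher and 1 lower, against 4.59% and 2.89% of all tested genes. The list's median was -0.01. The ubiquitin ligase Fbxo32 (atrogin-1), a FoxO target of wasting muscle, rose by 0.75 ± 0.19 (limma adjusted p = 0.0449), with -0.67 to -0.21 on p53-null arrays, against -1.67 to -0.72 on wild-type arrays. On the 7 arrays without high skeletal muscle markers, given further on, Fbxo32 read -0.67 to -0.38 in p53-null lung, against -1.67 to -0.72 in wild-type lung. The cell-cycle inhibitor Cdkn1a, which p53 also induces, was lower by -1.07 ± 0.20 (limma adjusted p = 0.0232). In Fbxo32 and Cdkn1a the groups did not overlap. With single arrays left out, Fbxo32 kept its call 1 time in 10 and Cdkn1a 5 times, and without wild-type array 5, where 31.3% of all genes were called, the list had 2 higher and 8 lower calls.

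Of 24 regulators of FoxO activity, 1 was called higher and 1 lower, against 4.59% and 2.89% of all tested genes. The list's median was -0.01. Pik3cd, the PI3-kinase subunit of leukocytes, read 2.16, 1.53, 1.75, 1.48 and 1.61 on p53-null arrays, against 0.56, 0.51, 0.05, 0.51 and 0.95 on wild-type arrays. It was higher on every p53-null array, by 1.19 ± 0.18 (limma adjusted p = 0.0126), and kept its call whichever of the 10 arrays was left out. Sgk1, a kinase that phosphorylates FoxO proteins, read 3.29, 3.26, 3.42, 3.26 and 3.58 on p53-null arrays, against 3.95, 3.94, 4.24, 3.90 and 3.64 on wild-type arrays, and was lower by -0.57 ± 0.12 (limma adjusted p = 0.0262; called 3 times in 10). Pik3cd is expressed in leukocytes, and neutrophil and lymphocyte markers were higher on the same arrays; the part of those cells in its difference was not tested.

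FoxP repressors all had small negative differences at the probe used for the gene. Foxp1, which with Foxp4 limits secretory fate in airway epithelium, read 3.14, 3.08, 3.13, 3.34 and 3.36 on p53-null arrays, against 3.37, 3.27, 3.49, 3.59 and 3.14 on wild-type arrays. Its difference was -0.16 ± 0.10 (limma adjusted p = 0.350), and its other probes gave -0.23 ± 0.082 and 0.02 ± 0.25. Foxp4 read -3.77, -3.81, -3.93, -3.68 and -3.64 on p53-null arrays, against -3.55, -3.75, -3.40, -3.42 and -3.34 on wild-type arrays. Only wild-type array 2 lay inside the p53-null range, and the difference was -0.28 ± 0.098 (limma adjusted p = 0.104). A second Foxp4 probe, on chromosome 17 from 46007273 to 46008770 (mm7), read -4.62, -4.37, -4.70, -4.09 and -4.49 on p53-null arrays, against -4.03, -4.19, -3.76, -3.74 and -3.81 on wild-type arrays, and passed at -0.55 ± 0.14 (limma adjusted p = 0.0438 over all probes). Foxp2, also a factor of lung epithelium, differed by -0.17 ± 0.11 and -0.24 ± 0.12 at its probes, without passing.

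Of 11 tested FoxP partners and targets, 1 was called higher and 1 lower, against 4.59% and 2.89% of all tested genes. The list's median was -0.02. The called genes were Lef1, a Wnt-pathway factor also expressed in T cells, at 0.45 ± 0.091 (limma adjusted p = 0.0260), and Nkx2-1, which the FoxA list also holds. Lef1 read -0.58 to -0.14 on p53-null arrays, against -0.88 to -0.73 on wild-type arrays, with no overlap, and its call held 4 times in 10 with single arrays left out.

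Among D-class genes other than Foxd4, Foxd1, which marks stromal cells of the developing kidney and lung, read -5.74, -5.38, -5.37, -5.42 and -5.02 on p53-null arrays, against -5.93, -5.71, -6.28, -5.61 and -5.42 on wild-type arrays. P53-null arrays 1 and 4 lay within the wild-type range and the other 3 above it, a difference of 0.40 ± 0.18 (limma adjusted p = 0.172) with 0.51 ± 0.30 at the second probe. Foxd2 and Foxd3, the second a neural crest factor, differed by 0.27 ± 0.42 and 0.08 ± 0.18. Neither was called (limma adjusted p = 0.731 for Foxd2 and 0.804 for Foxd3).

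**Figure D3:**
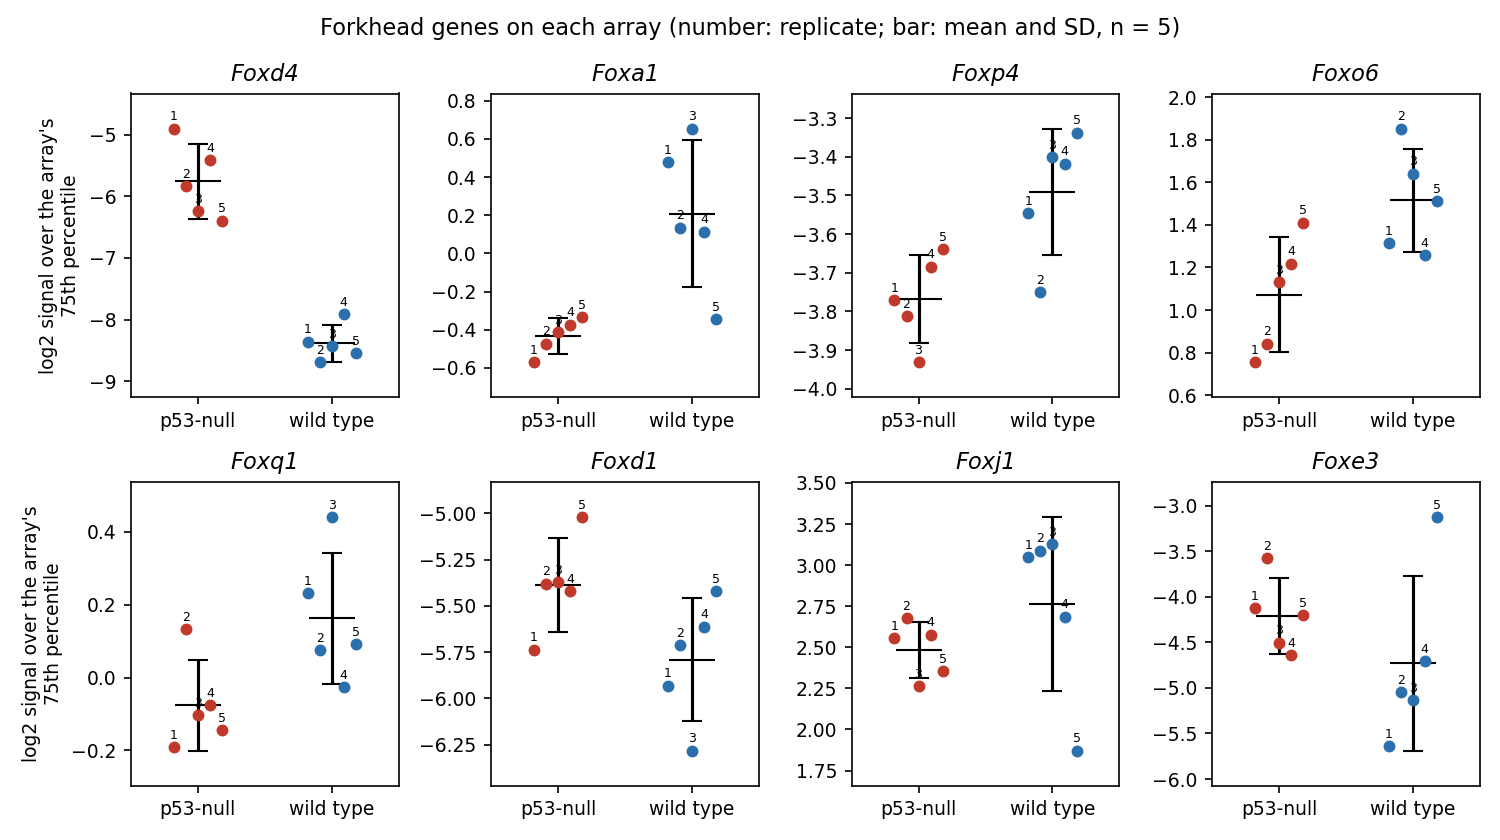
Log2 signal of 8 forkhead genes relative to the array's 75th percentile (vertical axes), one point per array numbered by replicate, p53-null left and wild type right, with the group mean and SD (n = 5 each). Foxd4 separates the groups, with p53-null arrays from -6.39 to -4.90 and wild-type arrays from -8.69 to -7.91, and wild-type array 5 sits apart from the other wild-type arrays in Foxa1, Foxj1 and Foxe3.

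Wild-type array 5 stood apart in several of these genes. It was also the dimmest array, with a 75th-percentile signal of 2381 scanner units before scaling. The other wild-type arrays had 3721 to 4398 and the p53-null arrays 2799 to 3595. Whether its low signal bears on its readings was not tested. Foxe3, a lens factor, read -4.13, -3.57, -4.50, -4.64 and -4.20 on p53-null arrays, against -5.64, -5.05, -5.13, -4.71 and -3.12 on wild-type arrays, so the highest array of all was wild type and the 4 lowest were wild type too. Its difference was 0.52 ± 0.42 (limma adjusted p = 0.458), and 0.92 without that array (limma adjusted p = 0.0218). Without it Foxa1, Foxe3 and Foxj1 were called, 3 of 30 (10%), against 31.3% of all genes, and the same 3 genes had groups that did not overlap, against 29.3% of all. That share of the family stayed below the background of the whole array.

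The genes with several probes show how far 1 probe can be trusted. Of the 44 forkhead probes tested besides that of Foxd4, 2 were called over all probes, those of Foxa1 and of the second Foxp4 probe, against 7.1% of the 31599 probes tested. Foxk2, which with Foxk1 represses autophagy genes and promotes glycolysis, had 4 probes that disagreed in sign: 0.05 ± 0.16 at the probe used for the gene, and -0.39 ± 0.11, -0.24 ± 0.11 and 0.29 ± 0.18 at the others. The Foxk2 probe at -0.39, on chromosome 11 from 121417227 to 121417286 (mm7), read -0.28, -0.38, -0.60, -0.54 and -0.63 on p53-null arrays, against -0.22, -0.24, 0.11, -0.15 and 0.01 on wild-type arrays. These groups did not overlap, and the probe missed the threshold (limma adjusted p = 0.0536 over all probes). Foxk1 had 3 positive differences, 0.17 ± 0.37, 0.45 ± 0.21 and 0.60 ± 0.25, and Foxn2, little studied in lung, had 0.08 ± 0.099 and 0.49 ± 0.19, none of them called.

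**Figure D4:**
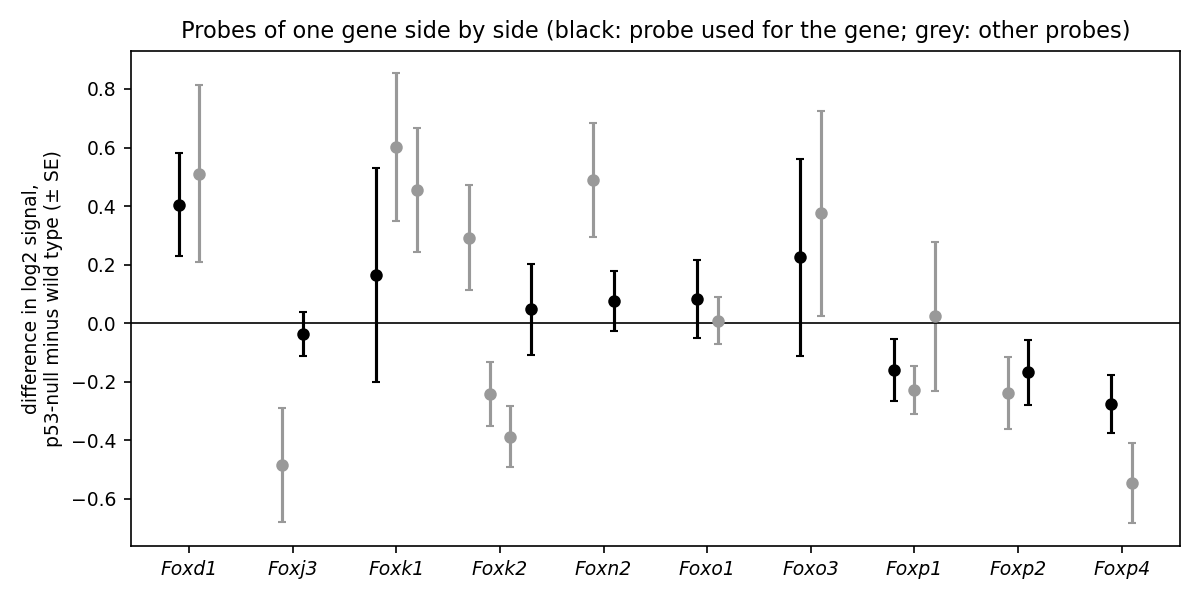
Difference in log2 signal, p53-null minus wild type, with its SE, at each tested probe of the 10 forkhead genes that have several (black is the probe used for the gene, grey the others). The Foxk2 probes lie on both sides of 0, from -0.39 to 0.29, as do the Foxp1 probes, from -0.23 to 0.02. In each of the other genes shown the tested probes agree in sign.

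A dim forkhead gene that was not tested between genotypes varied between the arrays of each genotype. Foxe1, a factor of thyroid development, exceeded the background limit on p53-null array 5, at -6.02, and wild-type array 2, at -5.44, and on no other. It read -9.88 to -8.11 on the other p53-null arrays, against -9.90 to -7.36 on the other wild-type arrays. The same arrays had the highest levels of squamous epithelium markers, 4.08 on p53-null array 5 and 5.22 on wild-type array 2, against -1.49 to -0.61 on the other 8, while thyroid markers spanned -0.29 to 0.22 on p53-null arrays and -0.47 to 0.45 on wild-type arrays. None of the 8 tested squamous genes was called by limma between genotypes or passed at an unadjusted p under 0.05.

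Skeletal muscle markers were high on p53-null arrays 4 and 5 and wild-type array 2, at 2.89, 2.81 and 3.89, against -2.01 to -1.05 on the other 7. Without these 3 arrays the difference of Foxd4 was 2.65 and that of Foxa1 -0.71. None of the 30 tested forkhead genes besides Foxd4 was called by limma, with 3 at an unadjusted p under 0.05. That fit called only 0.0474% of all genes, so the lack of calls does not describe the family. Whether other tissue on these arrays supplied Foxe1 signal was not tested.

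**Figure D5:**
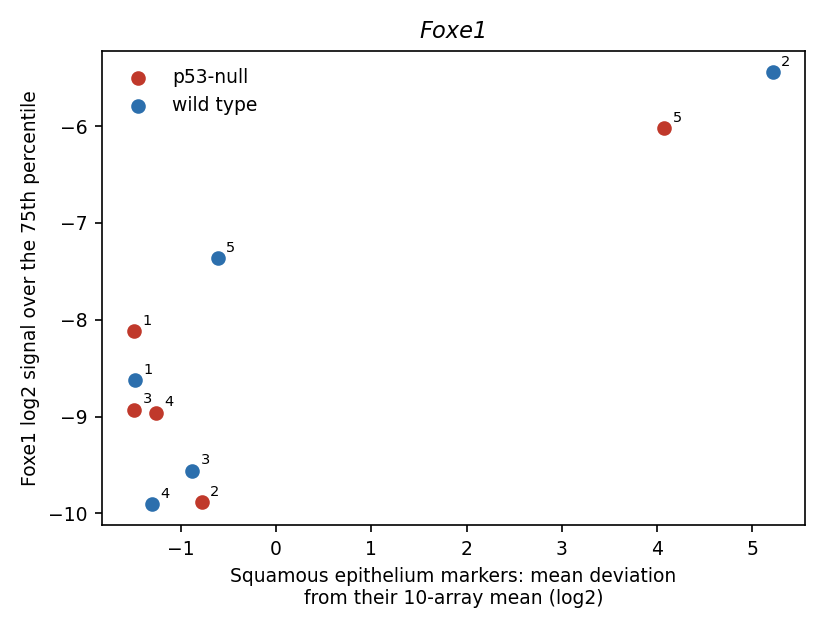
Log2 signal of Foxe1 relative to the array's 75th percentile (vertical axis) against the mean level of squamous epithelium markers, as a log2 deviation from the 10-array mean (horizontal axis), one point per array, numbered by replicate. P53-null array 5 and wild-type array 2 lie apart at high Foxe1 and squamous levels.

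The remaining genes near the detection limit showed spread within both genotypes. Foxn1, the factor of thymic epithelium and hair follicles, read -8.26, -6.22, -6.35, -9.25 and -5.99 on p53-null arrays, against -8.25, -5.98, -8.27, -7.28 and -6.08 on wild-type arrays, a difference of -0.04 ± 0.74 (limma adjusted p = 0.977). The mean level of thymic epithelium markers spanned -0.28 to 0.11 on p53-null arrays and -0.29 to 0.15 on wild-type arrays. Foxb1, a factor of the hypothalamus and just outside the limit, read -7.97, -7.52, -7.45, -9.47 and -9.39 on p53-null arrays, against -9.16, -8.11, -7.69, -6.44 and -8.65 on wild-type arrays. The spread of Foxn1 and Foxb1 within each genotype was wider than the step between genotypes. Foxb2 differed by 0.35 ± 0.50, with p53-null array 4 highest at -3.91. Foxn4, known from retina and spinal cord, read -9.35 to -7.75 on p53-null arrays, against -9.55 to -7.89 on wild-type arrays, and Foxi1 -9.41 to -7.86, against -10.68 to -8.60.

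Foxh1, the partner of Smad proteins in Nodal signalling, differed by -0.04 ± 0.18, Foxl2, an ovarian factor, by 0.02 ± 0.35, and Foxi2 by -0.18 ± 0.44, none of them called. Of the genes carried under older names, Foxo4 differed by 0.14 ± 0.41 and Foxs1 by 0.09 ± 0.15, and the 3 probes of Foxn3 gave -0.43 ± 0.23, -0.25 ± 0.11 and 0.40 ± 0.19, none called. Foxi1, Foxn1, Foxj1 and Foxk2 lie on chromosome 11 with Trp53, and none of the tested ones was called with all arrays.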

How the data were processed

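Whole-lung total RNA of 5 p53-null and 5 wild-type mice was labelled with Cy3 and read on 1-colour arrays, per the labels' protocols. Per the submitters' processing notes, scanner signals came from Agilent Feature Extraction 9.5. The deposited intensity is background-subtracted within each array and not scaled between arrays, per the file headers; the deposited value table equalled it (largest difference 0).

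From log2 intensity, the 75th percentile of the array's 43379 non-control spots was subtracted. Outlier-flagged spots were left out, spots of a probe averaged, and each gene was read from its brightest probe on average. The 21116 genes with that probe well above background on 5 or more arrays were tested with limma 3.58.1 (lmFit, eBayes) in R 4.3.3, Benjamini-Hochberg threshold 0.05; an adjusted p without further note is over all tested genes. Coordinates of probes are on mm7, from the files; gene names were updated through a RefSeq table.

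The members and gene lists were chosen with earlier results of these data known. Named by rule were every forkhead gene, with values per array for called genes, Foxd4, the 6 uncalled genes with the smallest p, the 6 with the highest mean and those at the detection limit; genes within 1 Mb of Foxd4; and called list members, or the 2 with the smallest p. Values per array for Foxe1, Foxe3, Foxk2 and the second Foxp4 probe were added after they were seen, as were alternatives for list genes and the overlap without wild-type array 5. Alternatives changed the scaling, background, dim-probe filter, choice of probe, slide, scan day, replicate number, variance model, thresholds and arrays left out. Replicate numbers did not pair the samples. Some genes that this rule names are not reported here. The code was tested on simulated data.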

Additional observations from a re-analysis of the deposited data

Results flagged for a closer look

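In 6 of 104 groups of 5 arrays examined (31 tested forkhead genes and the gene lists, in each genotype), 1 array lay further from its nearest neighbour than Dixon's critical value for 5 values, 0.71, allows, and chance alone singles out about 1 group in 20. Foxc1 was highest on p53-null array 3, at -1.162 with the next at -1.418. Foxj2 was highest on wild-type array 5, at 1.346 with the next at 1.193. Squamous epithelium markers were high on p53-null array 5, at 4.076 with the next at -0.781, and on wild-type array 2, at 5.215 with the next at -0.613. Skeletal muscle markers were high on wild-type array 2, at 3.887 with the next at -1.10, and thymic epithelium markers were low on p53-null array 5, at -0.283 with the next at 0.038.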

How the results depend on the processing

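Besides Foxd4, no forkhead gene was called (0 higher, 0 lower) with normexp background, median scaling, no filter on dim probes, the mean over a gene's probes, the slide as a fixed or random block, the range of slide numbers as a block, the lower slide number range alone, the scan day as a block, the replicate block, an adjusted p under 0.01, or without the arrays high in muscle or squamous genes (p53-null 4 and 5, wild-type 2); in the 11 of these that refit the model, 0 to 5 forkhead genes passed at an unadjusted p under 0.05. Of these settings, normexp called 6.32% of all genes, the mean over probes 6.1% and the random slide block 5.5%, against 7.49% at first. A fixed slide block called 0%, the lower range alone 0.0758%, the replicate block 0.123% and leaving out the 3 arrays 0.0474%. In fits with so few calls, the lack of forkhead calls does not describe the family. No share of all genes at the unadjusted threshold is given for these fits. Array weights called 4 forkhead genes, of which 1 was higher (Foxd1) and 3 lower (Foxa1, Foxj1 and Foxp4), with 30.9% of all genes called. All genes called, 1581 at first, numbered 583 with median scaling, 538 with no filter, 0 with the slide as a fixed block, 697 with that range as a block, 16 within the lower range, 322 with the scan day as a block, 26 with the replicate block, 6516 with array weights, 56 and 3527 at adjusted p under 0.01 and 0.1, and 10 without those 3 arrays. Leaving out 1 array gave 0 to 3 forkhead calls (0 to 1 higher, 0 to 2 lower) and 192 to 6619 calls over all genes, highest without wild-type array 5 and lowest without p53-null array 3; the cause was not tested. Foxa1 kept its sign in all 27 alternatives and its call in 7. Of the 31 forkhead genes, 20 changed sign under some alternative, uncalled before and after, the largest of them 0.35 in size at first, and 11 did not. Samples with the same replicate number correlated at -0.221 to 0.001 in their deviations, so the numbers do not pair the samples, and no p53-null array matched its own number best. With the positive-and-significant flag 35 forkhead genes were detected on at least 5 arrays, against 31; dim probes such as Foxd4 in wild-type lung limit what a difference can show.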
